A study of Homo sapiens with 12 samples.

Results

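The NDRG family comprises 4 human genes, NDRG1, NDRG2, NDRG3 and NDRG4, and all 4 were measured among 14232 genes in hypoxic LN229 cells. Members were taken as the probe sets that the platform annotation pairs with a single NDRG symbol, and each symbol had 1 such probe set. LN229, an established cell line from a human glioblastoma, was profiled on 12 whole-transcript Affymetrix arrays in 4 groups of 3. The control group received non-targeting siRNA and stayed in 20% oxygen (normoxia). The other groups were held in 1% oxygen (hypoxia) with non-targeting siRNA, with siRNA against HIF1A, or with siRNA against HIF2A, whose gene symbol is EPAS1. Every group was thus transfected, 24 h after seeding, and the oxygen was changed 48 h later for 16 h. HIF1A and EPAS1 encode the subunits through which oxygen controls the hypoxia-inducible factors (HIFs), and the comparisons asked which hypoxic responses need which subunit.

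The 4 paralogs lie on different chromosomes in the RefSeq annotation of GRCh38.p14. NDRG1 spans chr8:133237175-133297252, NDRG2 chr14:21016763-21070872, NDRG3 chr20:36651771-36746090 and NDRG4 chr16:58463715-58515387. The deposited values carry no coordinates, and each probe set gives 1 value per gene, so exons and transcript forms were not separated.

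NDRG proteins share an alpha/beta-hydrolase fold but are thought to have no hydrolase activity. NDRG1 is a widely used marker of hypoxia that is also induced by iron chelation, repressed by MYC and MYCN, and phosphorylated by SGK1 and GSK3, and its loss causes a demyelinating Charcot-Marie-Tooth neuropathy. NDRG3 is known from hypoxia through its protein, which the oxygen sensor EGLN1 marks for destruction with VHL and which lactate stabilizes, with RAF-ERK signalling downstream. NDRG2 is abundant in astrocytes, is repressed by MYC and is often lost in glioma, and NDRG4 is expressed mainly in brain and heart.

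RefSeq promoter windows, the 250 bases before a transcription start (GRCh38.p14), were matched for NDRG2 with 5 windows and for NDRG4 with 4, and NDRG1 and NDRG3 were not matched. HIFs bind a core of ACGTG or GCGTG, so these letters were searched on both strands. Matches lay in 3 of the 5 NDRG2 windows, some of which overlap each other, and in 1 of the 4 NDRG4 windows. Over all 35116 windows of this length, 43.2% held at least 1 match, with ACGTG in 18.5%, GCGTG in 32.2% and the palindrome CACGTG, which contains ACGTG on both strands, in 6.34%. The windows below are shown to set paralogs that were not called in hypoxia beside DDIT4 and ALDOC, of the 5 genes whose values followed NDRG1 most closely. Of the others of these 5, LRP1 held no match in its 1 window, HK2 held matches in 2 of 2 windows, and no VEGFA window was searched. Capitals mark the motif or its reverse complement, 5′ to 3′ on the gene's strand. They are NDRG2 at chr14:21025106-21025355 (minus strand), NDRG4 at chr16:58463465-58463714 (plus), DDIT4 at chr10:72273674-72273923 (plus) and ALDOC at chr17:28576896-28577145 (minus).
NDRG2 promoter: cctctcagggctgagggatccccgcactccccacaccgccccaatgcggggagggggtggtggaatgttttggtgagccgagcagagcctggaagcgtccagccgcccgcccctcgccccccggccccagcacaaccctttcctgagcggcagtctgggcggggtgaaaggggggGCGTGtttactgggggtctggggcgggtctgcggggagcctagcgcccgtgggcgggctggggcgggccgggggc
NDRG4 promoter: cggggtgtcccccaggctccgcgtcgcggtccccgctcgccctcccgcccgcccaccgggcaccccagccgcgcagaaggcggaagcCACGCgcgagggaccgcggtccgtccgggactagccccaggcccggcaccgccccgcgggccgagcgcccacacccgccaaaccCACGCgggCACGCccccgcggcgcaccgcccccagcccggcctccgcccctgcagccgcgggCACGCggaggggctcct
DDIT4 promoter: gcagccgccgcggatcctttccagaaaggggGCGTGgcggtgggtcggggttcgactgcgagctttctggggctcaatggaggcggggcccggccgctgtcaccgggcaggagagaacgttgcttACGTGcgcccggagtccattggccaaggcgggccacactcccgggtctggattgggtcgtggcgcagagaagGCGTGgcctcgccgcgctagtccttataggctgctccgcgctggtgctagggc
ALDOC promoter: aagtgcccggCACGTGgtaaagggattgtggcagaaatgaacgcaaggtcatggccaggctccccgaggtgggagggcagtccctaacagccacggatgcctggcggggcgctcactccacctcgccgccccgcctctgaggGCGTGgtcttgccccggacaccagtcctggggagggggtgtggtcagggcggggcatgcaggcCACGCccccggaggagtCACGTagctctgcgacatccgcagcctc
The NDRG2 window held 1 match and the NDRG4 window 4, all of the GCGTG form. DDIT4 held 3 matches. ALDOC held 5, counting the palindrome on each strand. A match is a description of the letters and not a measured binding site.

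The arrays had no common range. Upper quartiles of the log2 values were 8.22, 8.20 and 7.88 with HIF1A siRNA, against 8.27 to 8.50 in hypoxia with control siRNA. They were 8.24 to 8.44 with HIF2A siRNA and 8.47 to 8.57 in normoxia. HIF1A siRNA replicate 3 was thus compressed among brighter probe sets, while replicates 1 and 2 lay just below the lowest arrays of the other hypoxic groups. Arrays of a group correlated at r = 0.983 to 0.994. HIF1A siRNA left 11.4% of the HIF1A transcript (log2 change -3.13, adjusted p = 0.00016). HIF2A siRNA left 16.6% of EPAS1 (-2.59, adjusted p = 3.1e-05), and HIF1A siRNA also lowered EPAS1, to 35.8% (-1.48, adjusted p = 0.00031). Of 8 astrocyte markers, 3 had means above the array median in every group, led by S100B at 10.8 in normoxia, whereas GFAP stood at 6.23 and AQP4 at 3.17. The labels do not say whether replicates were separate cultures. The p-values therefore reflect the spread among these arrays, and that spread may be technical.

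NDRG1 was the member that hypoxia raised. Its log2 values were 9.28, 9.19 and 9.28 in normoxia and 12.43, 12.41 and 12.26 in hypoxia with control siRNA. The groups did not overlap, and the transcript moved from between the 83.8 and 84.3 percentiles of its array to between 99.1 and 99.3. The means, 9.25 ± 0.05 and 12.37 ± 0.09 (SD, n = 3), gave an 8.67-fold rise (log2 change 3.12, SE 0.11, 95% interval 2.88 to 3.35, limma adjusted p = 1.2e-07). This was rank 6 among the rises of all 14232 genes.

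NDRG3, the paralog whose protein is tied to oxygen sensing, measured 8.72, 8.66 and 8.76 in normoxia and 8.98, 8.55 and 8.62 in hypoxia. The hypoxic values lay on both sides of the normoxic ones, with means of 8.72 ± 0.05 and 8.72 ± 0.23. The change was -5e-04 (SE 0.21, adjusted p = 0.999), with an interval of -0.46 to 0.46 that leaves room for a change of either sign. Its sign was positive under 3 rescalings of the arrays, at 0.15 with quantile normalization, 0.17 with cyclic loess and 0.06 with median centring.

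NDRG2 measured 7.70, 7.63 and 7.64 in normoxia and 7.65, 7.39 and 7.48 in hypoxia. One hypoxic value lay within the normoxic range and the others below it (change -0.15, SE 0.10, interval -0.38 to 0.08, adjusted p = 0.435). NDRG4 measured 7.87, 7.87 and 7.85 in normoxia, its tightest group, and 7.71, 7.85 and 7.74 in hypoxia. Again 1 hypoxic value reached the normoxic range (change -0.10, SE 0.09, interval -0.29 to 0.10, adjusted p = 0.607), and the sign turned to 0.05 with quantile normalization and 0.03 with cyclic loess. In all, 1 of 4 members was called, at an adjusted p under 0.05, and the same member alone did not overlap. Over all genes 12.3% were called, 3.37% as higher and 8.95% as lower, and 38.4% did not overlap. The upper bounds of the intervals for NDRG2 and NDRG4 were 0.08 and 0.10 on the deposited scale.

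**Figure D1:**
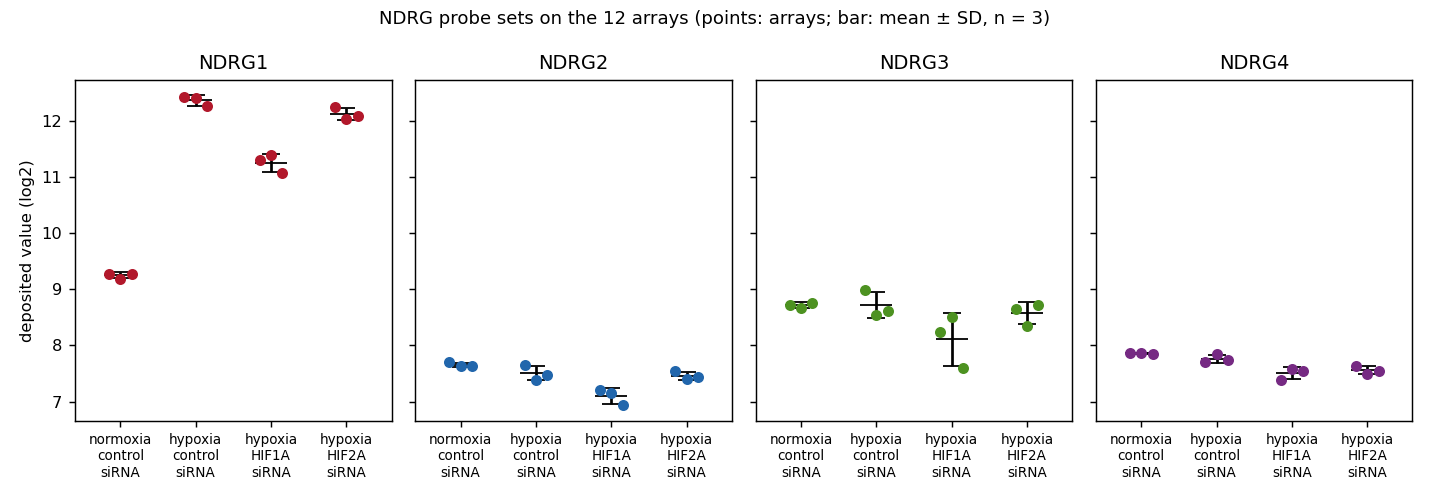
Deposited log2 value (vertical axis) of each NDRG probe set by group, with points for the 12 arrays and bars for mean ± SD (n = 3). NDRG1 stands at 9.19 to 9.28 in normoxia and at 11.07 or above on every hypoxic array, while NDRG2, NDRG3 and NDRG4 lie between 6.94 and 8.98; heights of different probe sets are not comparable.

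HIF1A siRNA lowered NDRG1 in hypoxia but left it far above normoxia. The values with HIF1A siRNA were 11.30, 11.38 and 11.07, all below the 3 hypoxic controls and all above the 3 normoxic arrays. The fall was 2.17-fold (change -1.12, SE 0.11, interval -1.35 to -0.88, adjusted p = 0.00027). Against normoxia the transcript remained 4.00-fold higher, from 9.25 ± 0.05 to 11.25 ± 0.16 (change 2.00, interval 1.77 to 2.24, adjusted p = 1.5e-05). Both comparisons of hypoxic groups with normoxia share the normoxic arrays.

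That 4.00-fold difference was rank 1 among all 14232 genes in hypoxia with HIF1A siRNA, and rank 1 in each of the other processing settings tried. The next genes were ALDOC, a glycolytic aldolase, at 1.62, VEGFA, an endothelial growth factor, at 1.44, HK2, a hexokinase, at 1.41, CHAC1, a glutathione-degrading enzyme, at 1.25, and ANGPTL4, a lipoprotein lipase inhibitor, at 1.22.

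On the log2 scale 64.2% of the NDRG1 rise was left with HIF1A siRNA, with array values of 65.7%, 68.5% and 58.4% (SD 5.24). On the linear scale, after the log2 means were raised back, the share was 39.1%. The share was set beside the 303 genes called higher in hypoxia by at least 1.5-fold, without the siRNA target EPAS1. Their median share was 13.2% on the log2 scale (quartiles -12.3% and 34.4%) and 7.81% on the linear scale. A share as high as that of NDRG1 was found in 21 of the 303 on the log2 scale and in 40 on the linear scale, NDRG1 included. Among the 20 largest rises the other shares ran from 7.53% for PPP1R3C, a glycogen-targeting phosphatase subunit, to 60.7% for VEGFA. The rises ranked next to NDRG1 kept 47.1% (ALDOC), 36.9% (ANGPTL4), 34.6% (STC1, a stanniocalcin), 14.8% (NRN1, a neuritin), 9.80% (TMEM45A) and 35.9% (ENO2, an enolase). The hypoxic control and normoxic arrays enter each share, and the choice of the 303 genes uses both, so these are descriptions. Under the 3 rescalings of the arrays the log2 share of NDRG1 was higher, at 68.5% to 69.6%.

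**Figure D2:**
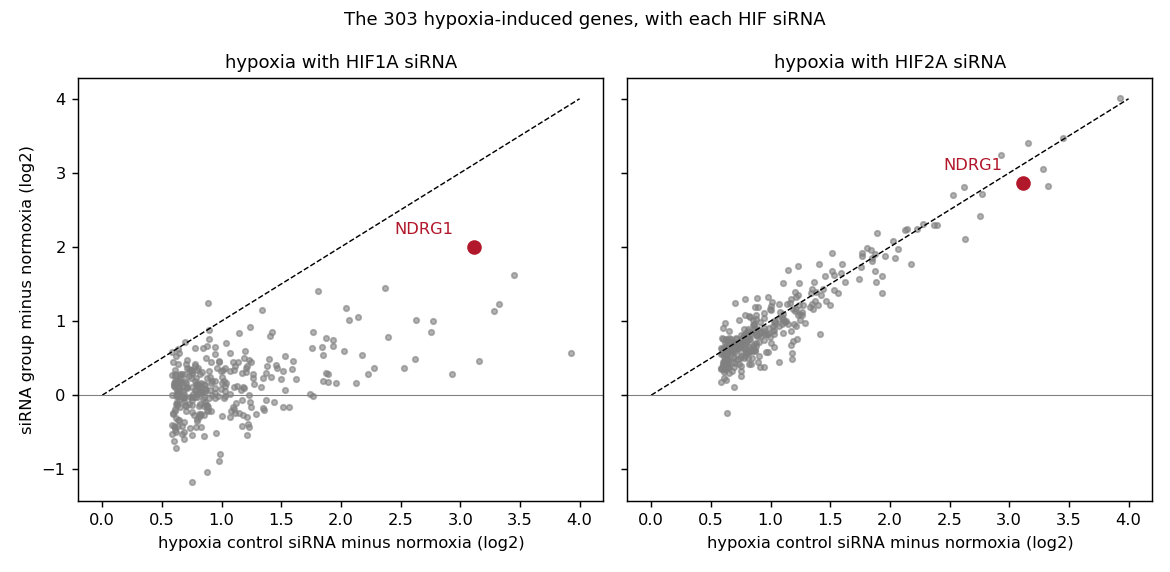
Each point is 1 of the 303 hypoxia-induced genes. The horizontal axis gives its log2 change in hypoxia with control siRNA and the vertical axis its change from normoxia with HIF1A siRNA (left) or HIF2A siRNA (right), the dashed line marking equality. NDRG1 (red) lies at 3.12 across and at 2.00 on the left, the highest point there, and at 2.87 on the right, close to the line.

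With HIF2A siRNA, NDRG1 measured 12.24, 12.03 and 12.08. All 3 lay just below the lowest hypoxic control of 12.26, but the difference did not pass (change -0.25, SE 0.11, interval -0.48 to -0.01, unadjusted p = 0.040 and adjusted p = 1.00 in the limma fit). The transcript stayed 7.30-fold above normoxia (change 2.87, adjusted p = 3.0e-07), which left 92.0% of the rise (arrays 96.0%, 89.3% and 90.8%, SD 3.49), or 82.1% in linear intensity. Among the 303 induced genes the medians were 92.4% and 89.8%.

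The direct comparison of the 2 siRNA groups put NDRG1 1.82-fold lower with HIF1A siRNA than with HIF2A siRNA (change -0.87, SE 0.11, interval -1.10 to -0.63, adjusted p = 0.0013). The groups did not overlap. In order of level, NDRG1 ran from hypoxia with control siRNA through HIF2A siRNA and HIF1A siRNA to normoxia, and the first pair was the one neighbouring pair without a call. EPAS1 was itself at 35.8% with HIF1A siRNA, and the part of that fall in the NDRG1 value was not tested.

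The other members did not show the NDRG1 pattern. With HIF1A siRNA, NDRG2 measured 7.21, 7.15 and 6.94, below every value of the other 3 groups. It was 1.33-fold lower than the hypoxic controls (7.10 ± 0.15 against 7.51 ± 0.13, change -0.41, SE 0.10, interval -0.63 to -0.18, adjusted p = 0.033). The call was lost without hypoxia control replicate 1 (-0.34, adjusted p = 0.147), hypoxia control replicate 3 (-0.42, 0.073) or HIF1A siRNA replicate 3 (-0.32, 0.104), and with quantile normalization (-0.22, 0.062), with array weights (-0.35, 0.066) and with these 2 groups fitted alone (-0.41, 0.177).

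NDRG3 measured 8.23, 8.50 and 7.59 with HIF1A siRNA, the widest spread of any member in any group (8.11 ± 0.47). All 3 values lay below the hypoxic controls, but the difference of -0.61 (SE 0.21, interval -1.06 to -0.15) did not pass (adjusted p = 0.082). It passed without HIF1A siRNA replicate 2 (-0.80, adjusted p = 0.020) and was -0.35 without replicate 3, the array with the lowest NDRG3 and the narrowest range. NDRG4 measured 7.38, 7.59 and 7.55, again below the 3 controls (change -0.26, SE 0.09, interval -0.46 to -0.06, adjusted p = 0.083). On replicate 3 NDRG4 stood at the 69.6 percentile of its array, above its 63.5 to 68.5 in the hypoxic controls, although its log2 value was lower.

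In this comparison 2 of 4 members were called, both lower, and in 4 of 4 the groups did not overlap. Over all genes 11.1% were called, 10.2% as lower and 0.857% as higher, and 30.8% did not overlap. The median change over all genes was -0.05, and it moved to 0.07 with quantile normalization, a shift of over 0.1. With quantile normalization the differences read -1.05 for NDRG1, -0.22 for NDRG2, -0.35 for NDRG3 and -0.02 for NDRG4.

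Against normoxia, NDRG2, NDRG3 and NDRG4 were lower in hypoxia with HIF1A siRNA on the deposited scale, where NDRG1 was higher. NDRG2 fell by 0.56 (interval -0.79 to -0.33, adjusted p = 0.0049), the one of these calls that held in every setting tried, although its size was -0.25 with quantile normalization, -0.28 with cyclic loess and -0.38 with median centring. NDRG3 fell by 0.61 (interval -1.07 to -0.15, adjusted p = 0.043), and lost the call without any normoxia replicate or without HIF1A siRNA replicate 1 or 3 (values of -0.67 to -0.35, highest adjusted p 0.139) and in each rescaling (-0.43 to -0.18). NDRG4 fell by 0.35 (interval -0.55 to -0.16, adjusted p = 0.014), but lost the call without normoxia replicate 1 (adjusted p = 0.051) and stood at 0.03 with quantile normalization, -0.03 with cyclic loess and -0.17 with median centring, without a call. All 4 members were thus called and none overlapped normoxia, where 35% of all genes were called, 30.4% as lower and 4.67% as higher, and 54.5% did not overlap. Cell type markers were called in this comparison too, and each called marker was higher. They were CD68 (0.41) and TYROBP (0.36) of 7 microglia markers, CLDN5 (0.38) and ESAM (0.30) of 7 endothelium markers and GFAP (0.34) of 8 astrocyte markers. Others of these lists were lower without a call: P2RY12 (3.81 in normoxia, 3.50 with HIF1A siRNA), CX3CR1 (5.03, 4.88) and TEK (3.62, 3.54). The mean log2 level of the microglia list ran from 4.75 to 4.92 over the normoxic arrays and from 4.92 to 4.99 with HIF1A siRNA. The mean of the endothelium list ran from 5.01 to 5.09 and from 5.19 to 5.24, and that of the astrocyte list from 6.10 to 6.21 and from 6.26 to 6.45. Leaving out single arrays ended each of these 5 marker calls, with normoxia replicate 1 among them in every case (highest adjusted p over the alternatives 0.067 for CD68, 0.143 for TYROBP, 0.133 for CLDN5, 0.089 for ESAM and 0.120 for GFAP). The markers' part in the NDRG falls was not tested. The median over all genes was -0.12 here and 0.08 with quantile normalization.

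**Figure D3:**
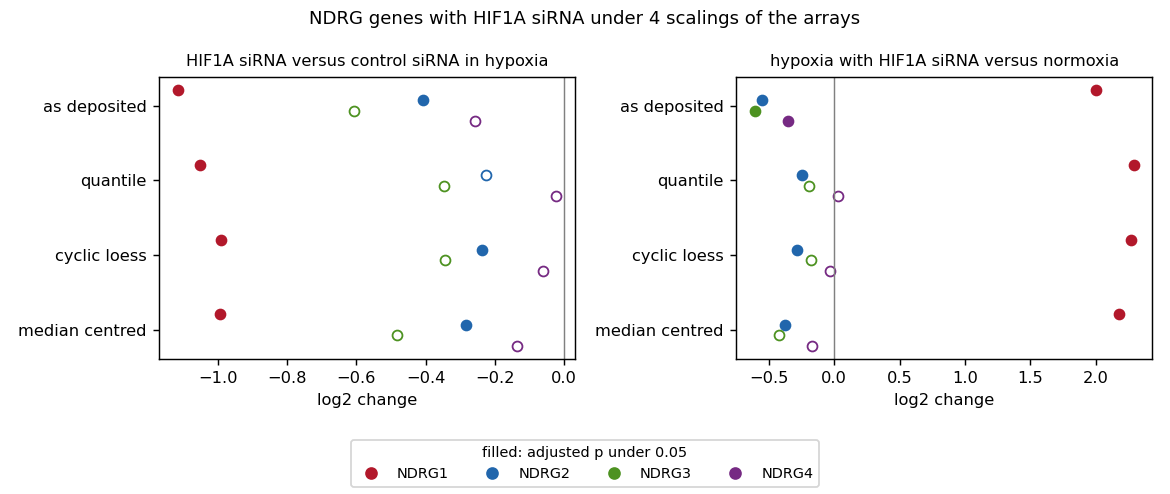
Log2 change (horizontal axis) of each NDRG gene with HIF1A siRNA, against hypoxia with control siRNA (left) and against normoxia (right), as deposited and under 3 rescalings (vertical axis). Filled points have an adjusted p under 0.05. NDRG1 keeps its call and its direction throughout, whereas NDRG4 moves from -0.35 to 0.03 on the right and NDRG3 has an open point there in each rescaling.

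HIF2A siRNA was followed by no call in the family. NDRG2 measured 7.54, 7.40 and 7.44, within the range of the hypoxic controls (change -0.05, interval -0.28 to 0.18). NDRG3 measured 8.65, 8.35 and 8.73, which also overlapped them (-0.14, interval -0.60 to 0.32). NDRG4 measured 7.63, 7.49 and 7.55, all below the controls (-0.21, interval -0.41 to -0.01, unadjusted p = 0.040).

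With limma 0 of 4 members were called in this comparison, 2 had an unadjusted p under 0.05 (NDRG1 and NDRG4), and the same 2 did not overlap. Over all genes 0.00703% were called, which was 1 gene, EPAS1 itself, 502 had an unadjusted p under 0.05, and 9.36% did not overlap. Against normoxia NDRG1 was the one member called with HIF2A siRNA, where 9.64% of all genes were called, 2.85% as higher and 6.79% as lower, and 36.7% did not overlap. NDRG4 lay below normoxia without overlap (-0.30, adjusted p = 0.058), as did NDRG2 (-0.20, adjusted p = 0.290). NDRG3 overlapped (-0.14, adjusted p = 0.777).

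Between the siRNA groups NDRG1 was again the one member called, beside 9.43% of all genes, 8.53% as lower, with 30.5% not overlapping. NDRG2 was lower with HIF1A siRNA than with HIF2A siRNA without overlap but narrowly missed the threshold (-0.36, interval -0.59 to -0.13, adjusted p = 0.053), and was called without HIF1A siRNA replicate 1 (-0.41, adjusted p = 0.038). NDRG3 (-0.47, adjusted p = 0.15) and NDRG4 (-0.05, adjusted p = 0.711) overlapped. NDRG3 was called without HIF1A siRNA replicate 2 (-0.66, adjusted p = 0.046), and the NDRG4 value was 0.19 with quantile normalization.

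**Figure D4:**
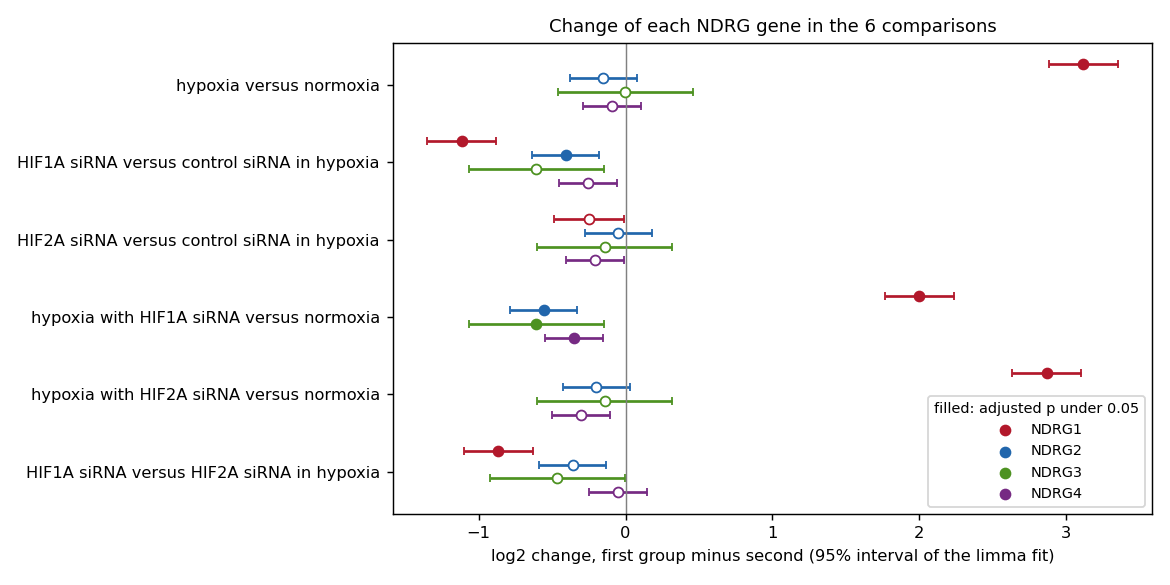
Log2 change (horizontal axis, bars are 95% intervals of the limma fit) of each NDRG gene in the 6 comparisons (vertical axis); filled points have an adjusted p under 0.05. The NDRG1 points at 3.12, 2.00 and 2.87 stand apart from those of the other members, which lie between -0.61 and 0.00.

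Over the 4 groups together, limma's moderated F test called NDRG1 (adjusted p = 4.6e-07), NDRG2 (0.015) and NDRG4 (0.032) but not NDRG3 (0.103), where 28% of all genes were called. The members differed in noise. The SD within groups was 0.07 for NDRG4, 0.11 for NDRG1 and NDRG2, and 0.28 for NDRG3, against a median of 0.17 over all genes. NDRG3 thus had a wider spread than 86.7% of genes, and the same fall was harder to call in it than in NDRG4.

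To compare the paralogs directly, the log2 values of 2 members were subtracted on each array, which removes any shift common to the whole array. It does not remove a compression of brighter probe sets, and the NDRG1 probe set was the brightest of the family. A difference within an array shows unequal change and not which transcript is more abundant. NDRG1 minus NDRG2 was 1.58, 1.56 and 1.64 in normoxia, 4.78, 5.01 and 4.78 in hypoxia, 4.08, 4.23 and 4.13 with HIF1A siRNA and 4.70, 4.63 and 4.64 with HIF2A siRNA. The 4 groups did not overlap one another. An exact permutation test of the F statistic over all 369600 assignments of the arrays gave an adjusted p = 0.00039 over the 6 pairs (unadjusted 6.5e-05, the smallest the design allows).

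NDRG1 minus NDRG3 rose by 3.12 in hypoxia, from 0.53 ± 0.02 to 3.65 ± 0.21 (exact permutation adjusted p = 0.0034 over the 4 groups). NDRG1 minus NDRG4 rose by 3.21, from 1.39 ± 0.06 to 4.60 ± 0.10 (exact permutation adjusted p = 0.0014). With HIF1A siRNA the 3 differences changed by -0.71, -0.51 and -0.86 from the hypoxic controls, so on the mean NDRG1 fell further than each paralog, and these steps were not tested separately. With HIF2A siRNA they changed by -0.20, -0.11 and -0.04.

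The pairs without NDRG1 did not pass over the 4 groups. Exact permutation adjusted p-values were 0.673 for NDRG2 and NDRG3, 0.228 for NDRG2 and NDRG4 and 0.558 for NDRG3 and NDRG4. NDRG2 minus NDRG3 stayed between means of -1.21 and -1.01, NDRG2 minus NDRG4 between -0.41 and -0.10, and NDRG3 minus NDRG4 between 0.60 and 1.02. The last had its low value from HIF1A siRNA replicate 3, at 0.04, where the other arrays of that group gave 0.85 and 0.91. These p-values do not show that the 3 paralogs changed alike.

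**Figure D5:**
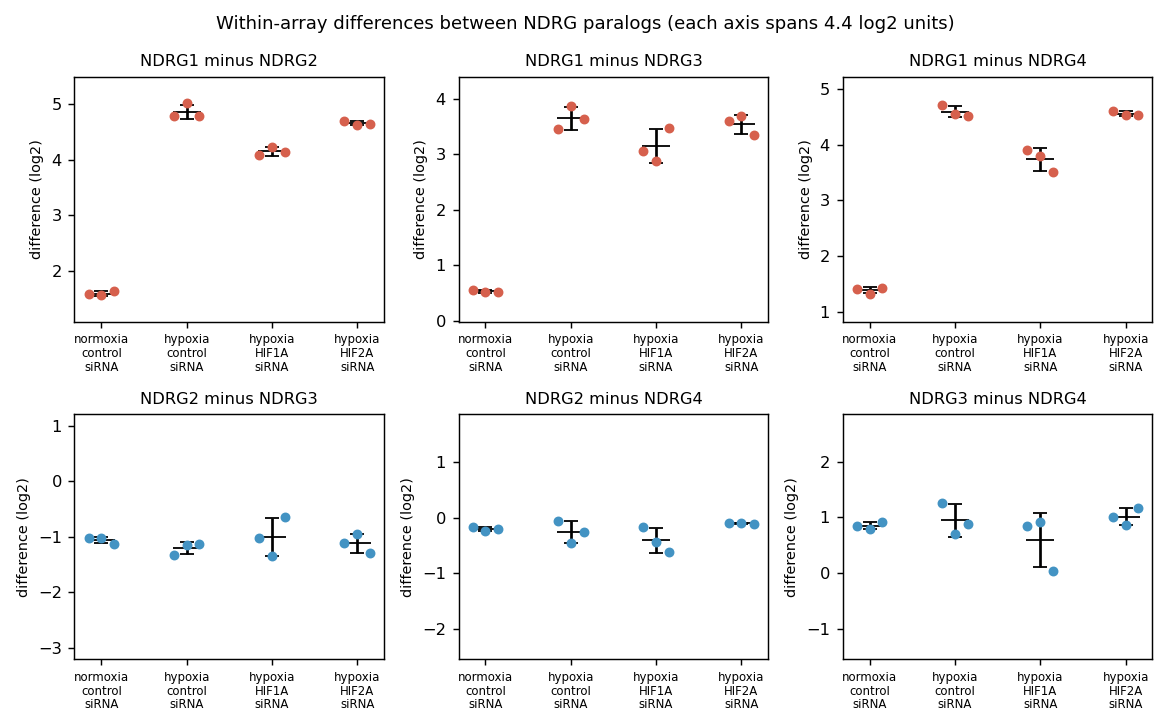
Within-array difference of log2 values (vertical axis, the same span in every panel) for the 6 pairs of NDRG genes by group, with points for arrays and bars for mean ± SD (n = 3). The 3 pairs with NDRG1 (top) move up by 3.12 to 3.27 in hypoxia and part of the way back with HIF1A siRNA, while the 3 pairs without it (bottom) show no such step.

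Genes with the most similar pattern were found for each member by Pearson's r over the 12 arrays. For NDRG1 they were DDIT4, an inhibitor of mTORC1 (0.993), VEGFA (0.990), LRP1, an endocytic receptor (0.985), HK2 (0.979) and ALDOC (0.974), whose own changes in hypoxia were 2.05, 2.37, 1.43, 1.81 and 3.45. The r of deviations from the group means, which leaves out the group pattern, was 0.81 for DDIT4 and 0.87 for ALDOC but 0.32, 0.23 and 0.10 for VEGFA, LRP1 and HK2. Between NDRG1 and its paralogs the r of deviations was 0.72 (NDRG2), 0.80 (NDRG3) and 0.21 (NDRG4). Over the 12 arrays the r of these paralogs with NDRG1 was -0.30, -0.04 and -0.48. In all, 74 genes had an r over 0.9 with NDRG1.

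NDRG2 and NDRG3 followed many more genes, 741 and 963 at an r over 0.9. The closest to NDRG2 were CNKSR2, SLC41A2, CNTROB, APPL2 and EDRF1 (r from 0.988 to 0.975, and 0.88 to 0.92 for deviations). The closest to NDRG3 were MAPRE2, TNKS2, TCF12, ERLIN1 and GTF2A1 (r from 0.991 to 0.986, and 0.98 to 0.99 for deviations). None of these 10 was called in hypoxia, each was lower with HIF1A siRNA than with control siRNA by 0.32 to 0.97, and all 12 points share the arrays' differences in range. NDRG2 and NDRG3 followed each other (r = 0.87, 0.82 for deviations). NDRG4 had no gene over 0.9, and its closest were SDF2L1 (0.888), LRATD2, YJU2, IFIT3 and GEM (0.864).

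Known regulators and partners of the NDRG proteins were followed in 8 lists, each measured only in part, with counts taken over the measured genes. Their counts stand beside 3.37% of all genes called higher and 8.95% called lower in hypoxia, and 0.857% and 10.2% with HIF1A siRNA against control siRNA. An unadjusted p under 0.05 was found in 25.6% of all genes in hypoxia, 30.6% with HIF1A siRNA and 3.53% with HIF2A siRNA, and the all-gene medians were -0.03, -0.05 and -0.01. Of 11 genes of oxygen sensing measured from a list of 14, not including EGLN1, 3 rose and 0 fell in hypoxia (median -0.06). They were EPAS1 (1.19, adjusted p = 0.00071), ARNT2, a HIF dimerization partner (0.52), and EGLN3, a prolyl hydroxylase (0.40). ARNT2 and EGLN3 were no longer called when normoxia replicate 1 or 3 or hypoxia control replicate 1 was left out, and EGLN3 also without hypoxia control replicate 2 or 3 (highest adjusted p 0.065 and 0.130). With HIF1A siRNA 4 of the 11 fell (median -0.42), among them HIF1A, EPAS1 and ARNT2 (-0.91, adjusted p = 0.0014). VHL, which targets hydroxylated HIF and NDRG3 proteins, changed by -0.24 in hypoxia (adjusted p = 0.154) and by -0.28 with HIF1A siRNA (adjusted p = 0.086).

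In the MYC network 1 of 12 genes rose and 1 fell in hypoxia (median -0.04). MXI1, an antagonist of MYC, rose from 7.08 to 8.58 (1.5, SE 0.12, adjusted p = 4.0e-05), and MLXIP changed by -0.31, a call lost with quantile normalization and cyclic loess, without any normoxia replicate and without hypoxia control replicate 2 or 3 (highest adjusted p 0.179). MYC, a repressor of NDRG1 and NDRG2, stood at 9.11 in normoxia, 8.53 in hypoxia, 8.83 with HIF1A siRNA and 8.95 with HIF2A siRNA, and its hypoxic difference of -0.58 did not pass (adjusted p = 0.081). With HIF1A siRNA MXI1 fell by 1.28 (adjusted p = 0.00027). MYCN, also a repressor of NDRG1, rose from 7.77 to 8.68 (0.90, adjusted p = 0.016), a call lost without hypoxia control replicate 1 or HIF1A siRNA replicate 3 (highest adjusted p over the alternatives 0.085). MYCN was thus higher and NDRG1 lower with HIF1A siRNA than with control siRNA, and the part of MYCN in the NDRG1 difference was not tested.

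SGK1, the kinase that phosphorylates NDRG1, was the 1 of 10 listed kinase genes called in hypoxia. It measured 9.82 in normoxia against 8.93 in hypoxia, a fall of 1.86-fold (-0.89, SE 0.10, adjusted p = 0.00034), in the opposite direction to its substrate's transcript. It stayed near that level with HIF1A siRNA (9.05) and HIF2A siRNA (8.97), and neither differed by a call from hypoxia with control siRNA (0.12, adjusted p = 0.422, and 0.04, adjusted p = 1.00). No kinase gene was called with HIF1A siRNA by limma, where 2 had an unadjusted p under 0.05 (median -0.21). Of 9 other reported regulators of NDRG1 transcription, 0 were called in hypoxia with limma and 1 had an unadjusted p under 0.05. With HIF1A siRNA ETS1 fell (-0.53, adjusted p = 0.038), a call lost in 11 of 15 alternatives, among them those without any hypoxia control replicate or without HIF1A siRNA replicate 1 or 3 (highest adjusted p 0.177).

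Lactate is the metabolite tied to NDRG3 protein. Of 13 listed genes of lactate production and transport, 9 were measured, and none of these encodes a lactate transporter itself. Of the 9, 2 rose and 1 fell in hypoxia (median 0.18). PDK1, which restrains pyruvate oxidation, rose by 2.15 (adjusted p = 2.3e-05), HK2 by 1.81 (adjusted p = 2.1e-06), and MPC1, a mitochondrial pyruvate carrier subunit, fell by 0.93 (adjusted p = 0.0025). LDHA, which makes lactate, was high in both, at 13.41 and 13.58 (0.18, adjusted p = 0.457). With HIF1A siRNA PDK1 fell by 1.09 (adjusted p = 0.0028, or 0.055 with these 2 groups fitted alone), while HK2 changed by -0.40 (adjusted p = 0.027) with its call lost in 8 of 15 alternatives, among them those without any hypoxia control replicate or without HIF1A siRNA replicate 3 (highest adjusted p 0.413).

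Of 18 listed genes of the RAF-ERK cascade and its feedback, 12 were measured, with ARAF and MAPK3 as the only cascade kinases. Of the 12, 0 rose and 1 fell in hypoxia (median -0.08). It was SPRY4, a feedback inhibitor (-0.48, adjusted p = 0.019), whose call was lost in 8 of 15 alternatives, among them the 3 rescalings, those without any normoxia replicate and those without hypoxia control replicate 1 or 2 (highest adjusted p 0.229). With HIF1A siRNA 0 of the 12 were called by limma and 2 had an unadjusted p under 0.05 (median -0.16).

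Of 12 receptors and junction proteins linked to NDRG1, 0 rose and 1 fell in hypoxia (median 0.00), CTNNB1, the beta-catenin gene (-0.53, adjusted p = 0.021). It was no longer called when normoxia replicate 1 or 3 or hypoxia control replicate 2 or 3 was left out (highest adjusted p 0.096). With HIF1A siRNA 4 fell and 0 rose (median -0.38): MET, a receptor kinase (-0.88, adjusted p = 0.013), RAB5A, an endosomal GTPase (-0.63), CDH2, N-cadherin (-0.55), and ERBB3 (-0.41). All 4 lost the call without hypoxia control replicate 1. RAB5A, CDH2 and ERBB3 also lost it without hypoxia control replicate 3, CDH2 and ERBB3 without hypoxia control replicate 2 or HIF1A siRNA replicate 3, and CDH2 without HIF1A siRNA replicate 1. Their highest adjusted p-values, 0.110, 0.136, 0.172 and 0.195, came with these 2 groups fitted alone.

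Of 11 genes of myelin and Charcot-Marie-Tooth neuropathy, the disease of NDRG1 loss, 0 rose and 2 fell in hypoxia (median -0.03). They were GDAP1 (-0.69, adjusted p = 0.045) and MFN2 (-0.50, adjusted p = 0.023), which encode mitochondrial proteins. Both calls were lost without any normoxia replicate and without hypoxia control replicate 2, GDAP1 also without replicate 3, and MFN2 without replicate 1 and with quantile normalization or cyclic loess (highest adjusted p 0.179 for GDAP1 and, with quantile normalization, 0.108 for MFN2). With HIF1A siRNA SBF2 (-1.19, adjusted p = 0.012) and FIG4 (-0.61, adjusted p = 0.039), of phosphoinositide metabolism, fell and 0 rose (median -0.27). Both lost the call without hypoxia control replicate 1, and FIG4 also without hypoxia control replicate 3 or HIF1A siRNA replicate 2 or 3 (highest adjusted p 0.106 for SBF2, with these 2 groups fitted alone, and 0.162 for FIG4).

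With HIF2A siRNA, EPAS1 was the one call by limma in these 8 lists, and 0 or 1 other gene in a list had an unadjusted p under 0.05. As a reference, 15 of 17 genes known to be hypoxia-induced rose and 0 fell (median 1.76), and 16 fell with HIF1A siRNA (median -1.0). Among markers of other cell types, none of neurons, oligodendrocytes, microglia, endothelium or epithelium was called in hypoxia or with HIF1A siRNA against control siRNA by limma, with 0 to 3 genes per list at an unadjusted p under 0.05. Of the astrocyte markers S100B fell in hypoxia (-0.63, adjusted p = 0.0091) and was higher with HIF1A siRNA (0.85, adjusted p = 0.0029).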

How the data were processed

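Whole-transcript expression was deposited by the authors as 1 log2 value per probe set and array for 12 arrays, 3 in each of 4 groups. Base 2 was inferred from the deposited values, which ran from 1.14 to 14.3. Partek and the genome build hg18 are named per the submitters' processing notes; for background correction, summarization and normalization the sources used here give nothing. The values were tested without rescaling. They hold no measure of background, so no detection filter was applied, and the number of arrays limits the precision.

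Of 22011 probe sets, 14432 carried 1 gene symbol, 2408 several and 5171 none, and 14404 of the first were found in a RefSeq table of GRCh38.p14, with 0 symbols updated. Where a gene had several probe sets the one with the highest mean was used, which left 14232 genes. A mean per group was fitted to all arrays with limma 3.58.1 (R 4.3.3, data.table, version 1.17.8), with eBayes and Benjamini-Hochberg adjustment over the 14232 genes within each of 6 comparisons. Calls needed an adjusted p under 0.05. Changes are differences of group means, first group named minus second, with limma's SE. Differences between paralogs were tested by exact permutation over 4 groups of 3, adjusted over 6 pairs. On simulated data, calls for hypoxia against normoxia over 14232 genes recovered 34%, 80%, 98% and 100% of genes changed 1.5-, 2-, 4- and 8-fold. The simulation changed 50 genes at each fold, with independent noise and no differences in range between arrays. Recovery on the real arrays may therefore differ. Plots used matplotlib 3.10.9.

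The members and the gene lists were chosen with earlier results of these data known. Genes named are the members, the siRNA targets, the 5 genes with the highest r with each member, up to 4 called genes per list and comparison with the largest changes, and direct regulators of the family; genes named beside the NDRG1 rank and share were chosen after their values were seen. Alternatives were other scalings, a replicate block, array weights, a variance trend, the median over probe sets, leaving out dim probe sets, fitting 2 groups alone and leaving out each array. The replicate numbers were not used as pairs in the main fit. Of 18 same-numbered pairs of arrays, 5 had deviations from the group means correlated over 0.1, which cannot decide whether a number marks a batch.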

Additional observations from a re-analysis of the deposited data

Results flagged for a closer look

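The effects of the 2 siRNAs on NDRG1, both taken against the same hypoxic controls, differed in the direct comparison of the siRNA groups. NDRG1 was lower with HIF1A siRNA by a log2 difference of -0.87 (limma adjusted p = 0.0013), with 3 of 3 arrays below every HIF2A siRNA array.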

How the results depend on the processing

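NDRG1 kept its direction and its side of the threshold in all 90 alternatives over the 6 comparisons, and the 18 tests of paralog differences under rescaling kept their side. The other members were the same in 78 (NDRG2), 68 (NDRG3) and 77 (NDRG4) of 90; the causes were not tested. Replicate numbers were not used as pairs in the main fit. Deviations from group means of 18 same-numbered pairs correlated at -0.29 to 0.42, with 5 over 0.1. These correlations cannot decide whether arrays of a number share a batch, because deviations within a group cancel out. With the replicate block NDRG3 with HIF1A siRNA against normoxia lost its call (-0.61, adjusted p = 0.056), and the block changed no other call of a member. For that comparison NDRG3 was -0.19, -0.18 and -0.43 with quantile normalization, cyclic loess and median centring, -0.61 with the 2 groups fitted alone and -0.45 with array weights, all without a call, and NDRG4 was 0.029, -0.030, -0.17 and, with 2 groups, -0.35, without a call. NDRG2 with HIF1A siRNA against control lost its call with quantile normalization (-0.22), 2 groups (-0.41) and weights (-0.35). Signs turned under the same 3 scalings for NDRG3 in hypoxia (0.15, 0.17, 0.057) and NDRG4 between the siRNAs (0.19, 0.15, 0.086). They also turned with quantile normalization and cyclic loess for NDRG4 in hypoxia (0.051, 0.029) and NDRG3 with HIF2A siRNA against normoxia (0.0075, 0.023), and with weights for NDRG2 with HIF2A siRNA against control (0.011). Calls appeared for NDRG2 between the siRNAs without dim probe sets (-0.36), with a variance trend (-0.36) and with weights (-0.36), and for NDRG4 with HIF2A siRNA against normoxia with 2 groups (-0.30) and weights (-0.27). The NDRG1 share left with HIF1A siRNA was 68.5% to 69.6% under the 3 scalings, the highest with cyclic loess, against 64.2% as deposited. Leaving out each array gave -0.13 to 0.0845 for NDRG3 in hypoxia, -0.46 to -0.32 for NDRG2 and -0.80 to -0.35 for NDRG3 with HIF1A siRNA against control, -0.10 to 0.023 for NDRG2 with HIF2A siRNA against control, -0.80 to -0.35 for NDRG3 and -0.39 to -0.29 for NDRG4 with HIF1A siRNA against normoxia, and -0.41 to -0.28 for NDRG2, -0.66 to -0.21 for NDRG3 and -0.089 to 0.012 for NDRG4 between the siRNAs.

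Over all genes, calls fell from 1573 to 137 for HIF1A siRNA against control with 2 groups and to 791 with weights, from 1342 to 127 between the siRNAs and from 4986 to 3250 for HIF1A siRNA against normoxia with 2 groups. They rose from 1754 to 3739 in hypoxia with weights, and from 1372 to 2131 with 2 groups and 3214 with weights for HIF2A siRNA against normoxia. Without normoxia replicate 1 the counts were 806 in hypoxia, 2361 and 588 for HIF1A and HIF2A siRNA against normoxia, the lowest with any array left out. For HIF1A siRNA against control they ran from 390 without hypoxia control replicate 1 to 2648 without HIF1A siRNA replicate 2, and between the siRNAs from 268 without HIF2A siRNA replicate 1 to 2557 without HIF1A siRNA replicate 2. For HIF2A siRNA against control the 1 call became 4, 4 and 3 under the scalings. Higher calls made up 27.4% in hypoxia, 7.76% with HIF1A siRNA against control, 13.3% and 29.5% with HIF1A and HIF2A siRNA against normoxia and 9.54% between the siRNAs, but 44.1%, 39.2%, 51.8%, 46.0% and 44.9% with quantile normalization. Only 3 arrays per group, unknown background and unequal array ranges limit the small changes of NDRG2, NDRG3 and NDRG4.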
